A study of Rattus norvegicus with 256 samples.

Results

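The ovary was compared with 30 other rat organs. Its members were the 5 arrays whose title and tissue label name the ovary, out of 256 arrays from 31 organs, and the other 251 arrays served as the reference. All rats were of the strain AlpkHsdBrlHan:WIST, derived from Han Wistar rats, and none was labelled as treated or mutant. The ovaries came from females numbered 1 to 5. Of the other organs, 26 were taken from males and females, whereas the uterus came from females and the testes, epididymis and prostate from males, with 3 to 10 arrays per organ. Each array held RNA from a piece of frozen organ of a single animal, so the 5 ovary arrays are separate rats. The labels give neither age nor stage of the oestrous cycle. Expression is given throughout as the GCRMA log2 value of a probeset, a set of short probes for a transcript, so that a difference of 1 is a 2-fold difference.

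The ovary makes oocytes and hormones. Granulosa cells surround the oocyte in the follicle and make inhibin and oestrogen, theca cells around the follicle make androgen, and after ovulation the follicle becomes a corpus luteum, whose cells make progesterone. All of these steroids start from cholesterol, which the protein STAR brings into the mitochondrion, where CYP11A1 cuts its side chain. The same opening steps run in the adrenal cortex and in the Leydig cells of the testes.

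The label was checked against Star, and against Inha, the alpha subunit of inhibin. Star had 14.66, 14.51, 14.84, 14.84 and 14.54 in ovaries 1 to 5, against a median of 2.44 over the means of the other 30 organs. The adrenal, the highest of them, averaged 14.75, so Star alone did not separate the ovary from the adrenal. Inha had 12.84, 12.95, 12.54, 12.20 and 12.47 in the ovaries, against a median of 2.84 over the other organ means. Both markers were high in every ovary, and no ovary stood out by either. In whole organs, fewer cells of a type and less RNA per cell cannot be told apart.

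Promoters of 5 genes described below are shown first. Their values in the ovary exceeded those of every other organ, as did those of further genes whose promoters are not shown. The 5 therefore do not give the frequency of the motif marked in them. They were copied from RefSeq (GRCr8) and run 5′ to 3′ over 300 bases, 250 before and 50 after the start site. Capitals mark CAAGGNCA or its reverse complement, the half-site to which the nuclear receptors NR5A1 and NR5A2 bind.
Akr1c3 promoter (chr17:71020634-71020933, plus strand): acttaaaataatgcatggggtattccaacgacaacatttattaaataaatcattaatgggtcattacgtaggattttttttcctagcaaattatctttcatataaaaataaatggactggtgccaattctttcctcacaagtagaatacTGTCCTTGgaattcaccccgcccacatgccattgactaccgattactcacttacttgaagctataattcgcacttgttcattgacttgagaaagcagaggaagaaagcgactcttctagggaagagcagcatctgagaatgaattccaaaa
Amh promoter (chr7:9559818-9560117, minus strand): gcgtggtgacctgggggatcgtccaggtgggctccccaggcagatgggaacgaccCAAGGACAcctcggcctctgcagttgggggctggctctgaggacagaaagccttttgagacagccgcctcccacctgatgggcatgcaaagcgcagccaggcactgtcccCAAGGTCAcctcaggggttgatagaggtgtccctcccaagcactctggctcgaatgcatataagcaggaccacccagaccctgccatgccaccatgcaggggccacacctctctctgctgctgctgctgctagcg
Aldh3b1 promoter (chr1:210591766-210592065, minus strand): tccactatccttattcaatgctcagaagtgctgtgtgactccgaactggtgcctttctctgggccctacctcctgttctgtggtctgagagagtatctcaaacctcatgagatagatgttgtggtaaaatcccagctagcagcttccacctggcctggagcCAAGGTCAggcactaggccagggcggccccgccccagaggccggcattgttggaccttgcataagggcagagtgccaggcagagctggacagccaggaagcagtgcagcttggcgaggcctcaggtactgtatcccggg
Lhcgr promoter (chr6:11415165-11415464, plus strand): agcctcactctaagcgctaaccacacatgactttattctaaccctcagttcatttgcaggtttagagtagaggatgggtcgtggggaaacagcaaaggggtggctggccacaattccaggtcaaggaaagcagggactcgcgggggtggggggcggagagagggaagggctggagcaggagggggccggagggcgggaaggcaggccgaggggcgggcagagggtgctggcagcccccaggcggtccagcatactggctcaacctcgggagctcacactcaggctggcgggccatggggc
Inha promoter (chr9:84442859-84443158, plus strand): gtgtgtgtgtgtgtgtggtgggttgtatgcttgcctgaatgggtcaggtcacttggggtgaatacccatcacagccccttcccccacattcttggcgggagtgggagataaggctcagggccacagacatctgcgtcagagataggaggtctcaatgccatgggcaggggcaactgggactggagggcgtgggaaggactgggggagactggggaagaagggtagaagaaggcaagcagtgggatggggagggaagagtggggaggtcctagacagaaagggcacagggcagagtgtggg
The Amh promoter held the motif at 2 places, which begin 195 and 85 bases before the start site, the Akr1c3 promoter held it once on the reverse strand, and the Aldh3b1 promoter held it once. The Lhcgr and Inha windows did not hold these letters. Of the 20 genes with the largest gap to the next organ, 16 had a promoter available and 4 of these held the motif. Among 55 ovary-highest genes with a promoter in the table, 6 held the motif (10.9%), beside 2192 of all 33469 promoters (6.55%). At least 2 copies were present in 123 promoters (0.368%). A match describes the letters and is no measured binding site.

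The ovary expressed 9439 of 31042 probesets (30.4%) above the expression threshold of the study's methods. The other organs expressed 7879 to 10147, with a median of 9725, and 3588 probesets were above the threshold in all 31 organs. Array medians lay between 4.03 and 4.09 in the ovaries, against 3.86 to 4.45 in the other arrays. The ovary arrays correlated with each other at 0.975 to 0.992 over all probesets, and the closest other array was an adrenal array for 5 of 5 ovaries. When each probeset was centred on its mean over the 31 organs, the ovary mean was most like the adrenal (r = 0.47 across 31042 probesets), followed by the pituitary (r = 0.14) and the uterus (r = 0.12), and least like the jejunum (r = -0.22). The testes, the other gonad, were seventh (r = 0.03). These values describe shared array content and carry no test. In aorta, heart and bone marrow, 4 arrays chosen from an earlier analysis of these data went against their sex label by Eif2s3y, a gene of the Y chromosome. It was at 3.04 to 6.04 in 3 of them labelled male, against 7.35 to 11.26 in the other 124 male arrays. In 1 labelled female it was at 8.43, against 2.44 to 6.52 in the other 128 female arrays. Xist, a gene expressed in females, was at 9.20 in this array, inside the 3.59 to 13.04 of the other 128. The 3 labelled male had 9.09 to 10.30 for Xist, against 2.27 to 9.89 in the other 124. Without these 4 arrays 124 ovary-highest probesets were called, against 125 with them.

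Against the mean of the other 30 organs, 2131 probesets were called higher in the ovary (6.86%) and 2801 lower (9.02%), at a difference of more than 1 and a limma adjusted p under 0.05. A stricter comparison asked whether the ovary was above each of the 30 organs. This held for 125 probesets (0.403%), by 1.02 to 7.08 with a median of 1.69. The difference to the next organ was over 2 for 49 of them and over 3 for 22. When each organ was fitted alone with the ovary the call remained for 81 of the 125, and by the methods' t-test for 66. Of the 125, 88 carried a single gene symbol and covered 75 genes, 36 carried none and 1 carried several. In 94 of the 125 every ovary array was above all 251 other arrays, a pattern shown by 129 probesets of the whole array (0.416%). The organ next in order was the adrenal for 15 probesets, the testes for 11, the kidney for 10, and the bladder, lung and uterus for 8 each. At the other end, no probeset was called lower in the ovary than in every other organ (0%), with 46 at an unadjusted p under 0.05 by limma and 30 by pairwise t-tests. The only probeset that met the limits on fold and level had no gene symbol, with 5.58 in the ovary and 6.72 in the pancreas, the lowest other organ (limma adjusted p = 1). Another had an adjusted p under 0.05 but lay under the expression threshold.

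**Figure D1:**
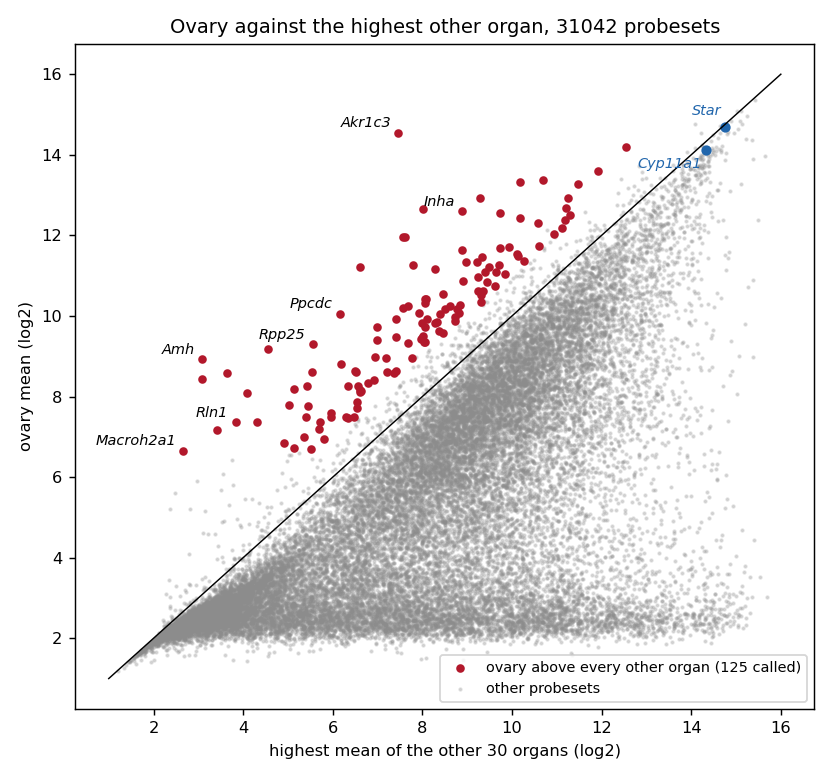
Ovary mean (y axis, log2) against the highest mean of the other 30 organs (x axis, log2) for 31042 probesets. Red points are the 125 probesets called above every other organ, which lie above the line of equality, while Star and Cyp11a1 (blue) lie on it, with the adrenal at the same level.

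The largest difference belonged to Akr1c3, also known as Akr1c18, a hydroxysteroid dehydrogenase that inactivates progesterone in the rat corpus luteum. It had 14.48, 14.47, 14.54, 14.64 and 14.59 in ovaries 1 to 5. The next organ was adipose, with 5.74, 7.46 and 9.06 as lowest, median and highest of 10 arrays, and the median of the other organ means was 1.89. No other array passed 9.46, and the ovary exceeded adipose by 7.08 (SE 0.34, limma adjusted p = 3.5e-49), a 135-fold difference. Steroid enzymes gave a further member in Hsd17b1, which turns oestrone into oestradiol. It had 8.12, 8.54, 7.12, 8.16 and 8.48 in the ovaries, against 2.38, 4.24 and 6.16 (lowest, median, highest) in 10 kidney arrays. All ovaries exceeded all other arrays, by 3.99 between the ovary and kidney means (SE 0.17, limma adjusted p = 1.28e-56).

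Hormones of the follicle and of the corpus luteum were also among the 20 genes with the largest gaps to the next organ. Amh, anti-Müllerian hormone from the granulosa cells of growing follicles, had 8.97, 9.47, 9.27, 7.62 and 9.29 in the ovaries. The next organ was the liver, with 2.40 to 4.01 over 9 arrays, and the testes averaged 2.82. The ovary exceeded the liver by 5.85 (SE 0.11, limma adjusted p = 5.5e-106), and ovary 4 was the lowest of the 5. Inha exceeded the heart, the next organ, by 3.70 (SE 0.17, limma adjusted p = 8.11e-52), with 7.87 to 9.48 in 7 heart arrays and a mean of 8.01 in the testes. Rln1, the hormone relaxin of the corpus luteum, had 6.26, 7.44, 7.47, 9.31 and 6.33 in the ovaries, against 2.23 to 4.74 in 5 prostate arrays. Ovary 4 had the highest Rln1 and the lowest Amh. The gap of Rln1 to the prostate was 3.53 (SE 0.16, limma adjusted p = 8.32e-52). That SE comes from the spread shared by all groups, whereas the SD of Rln1 over the ovaries was 1.23. When each organ was fitted alone with the ovary, its limma adjusted p was 0.0741.

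Receptors followed. Lhcgr, the receptor of luteinising hormone, was measured by 2 probesets, both called. The probeset with the larger gap had 8.58, 8.77, 10.07, 7.76 and 7.79 in the ovaries, against 2.28, 3.49 and 5.30 (lowest, median, highest) in 4 testes arrays. The groups did not overlap, and their means differed by 4.95 (SE 0.15, limma adjusted p = 5.68e-80). The brighter probeset had 11.24, 11.37, 11.64, 9.91 and 11.93 in the ovaries, against a mean of 6.61 in the testes and a median of 2.14 over the other organ means. Gnrhr, the receptor of gonadotrophin-releasing hormone, had 8.61, 8.86, 9.20, 9.09 and 8.25 in the ovaries, against 3.89, 6.52 and 7.34 (lowest, median, highest) in 10 pituitary arrays. The ovary mean was above that of the pituitary, the gland in which this receptor is best known, by 2.61 (SE 0.14, limma adjusted p = 7.07e-42). Its brighter probeset averaged 11.00 in the ovary and 10.09 in the pituitary, a gap of 0.92 that fell short of the 2-fold limit. Gpr176, an orphan receptor, exceeded the uterus by 2.40 with 1 of its 3 probesets.

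Among the remaining of these 20 genes were enzymes and surface proteins of several kinds. Ppcdc, an enzyme of coenzyme A synthesis, had 9.87, 9.96, 10.46, 9.88 and 10.13 in the ovaries, against 5.18 to 7.53 in 7 pancreas arrays. Rpp25, a subunit of the RNA-processing enzymes RNase P and RNase MRP, had 9.14, 9.02, 9.39, 9.27 and 9.64, against 4.91 to 5.93 in the 4 testes arrays. Vtcn1, an inhibitory ligand of T cells, had 11.13, 11.01, 11.59, 11.66 and 10.91, against 7.25 to 8.49 in 8 soleus muscle arrays. Each of these 3 genes varied little among the ovaries, with gaps of 3.90, 3.74 and 3.46 to the next organ. Bpifb6, of the bactericidal/permeability-increasing protein fold family, had 8.92, 9.49, 9.36, 5.21 and 9.25, against 2.39 to 4.05 in 7 pancreas arrays, so that its low value in ovary 4 still lay above all other arrays.

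Lrrn4 (a leucine-rich repeat membrane protein, gap 3.08 to the bladder) and Dag1 (dystroglycan, a receptor for laminin, gap 2.75 to the lung) were called with every one of their 3 and 4 probesets. Gadd45a, a growth arrest gene induced by stress, was expressed in most organs, with a median of 9.46 over the other organ means, and reached 13.36, 13.30, 13.65, 13.41 and 13.10 in the ovaries. It exceeded the kidney by 2.66. Gulp1, an adaptor for the uptake of dying cells, exceeded the pituitary by 2.88, and Aldh3b1, an aldehyde dehydrogenase, exceeded the bone marrow by 2.55. Testin, a secreted cathepsin-like protein of Sertoli cells, averaged 7.37 in the ovary and 4.31 in the stomach. Spin2b, of the spindlin family of chromatin readers, averaged 8.26 in the ovary and 5.42 in the stomach. Macroh2a1, a histone variant, averaged 6.66 in the ovary and 2.67 in the pancreas by 1 of its 2 probesets, a level close to the expression threshold. For the 20 named genes, 14 had a single probeset, 3 had every probeset called and 3 had a probeset that was not called. By the methods' t-test, which estimates the spread for each pair of organs, Bpifb6, Lhcgr, Rln1, Vtcn1, Testin and Spin2b were not called (Benjamini-Hochberg adjusted p = 0.0645 to 0.209), and Macroh2a1 fell under the expression threshold without ovary 2, 3 or 5.

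**Figure D2:**
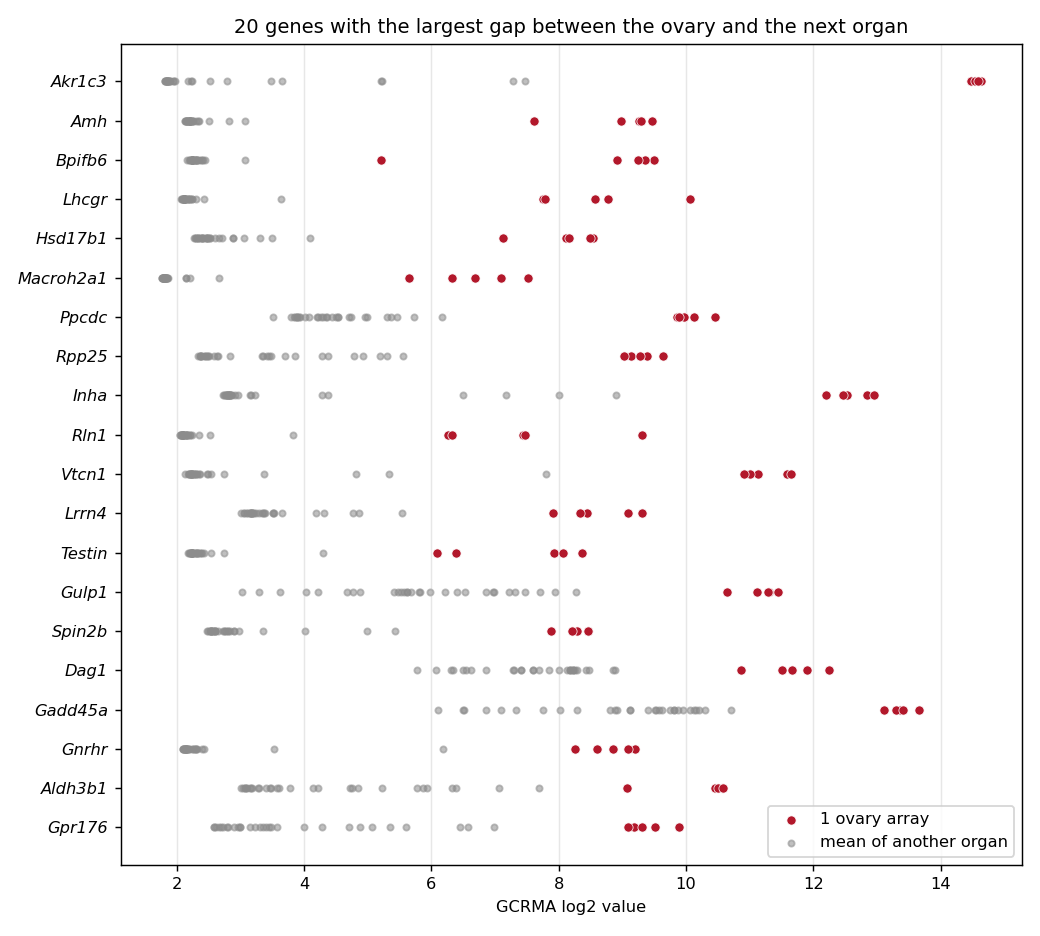
GCRMA log2 values (x axis) of the 20 genes with the largest gap between the ovary and the next organ, 1 gene per row in order of that gap. Red points are the 5 ovary arrays and grey points the means of the other 30 organs, and in every row all red points lie above all grey points.

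Further down the list of 75 genes stood A2m, a protease inhibitor made by luteal cells, at 11.41, 11.74, 11.11, 10.69 and 11.78 in the ovaries, against 8.37 to 10.23 in 10 pituitary arrays. Ptgfr, the receptor through which prostaglandin F2-alpha ends the life of the corpus luteum, was called with 1 of its 2 probesets, at 7.41, 6.95, 8.15, 7.59 and 7.81 in the ovaries, against 5.10 to 6.50 in 7 heart arrays. Inhba, the beta A subunit of activin and inhibin, was called with 1 of its 2 probesets, at 11.08, 11.14, 10.46, 11.21 and 11.54 in the ovaries, against 8.42 to 10.27 in 9 liver arrays. For these 3 genes the lowest ovary lay above the highest array of every other organ. Fst, follistatin, which binds activin, was called with 1 of its 2 probesets, which exceeded the skin by 1.28 (SE 0.33, limma adjusted p = 0.00998), whereas the other exceeded it by 0.79 (limma adjusted p = 1). Timp1, an inhibitor of metalloproteinases, exceeded the uterus by 1.71 (SE 0.44, limma adjusted p = 0.00952). Foxo1, a transcription factor of granulosa cells, was called with 1 of its 3 probesets, at 11.08, 10.60, 10.24, 9.88 and 8.45 in the ovaries, against 8.08 to 8.76 in the uterus. Ovary 5 thus lay inside the uterine range, and the mean difference was 1.66 (SE 0.44, limma adjusted p = 0.0193).

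The route from cholesterol to progesterone stood within 2-fold of the adrenal rather than above it. Cyp11a1 had 14.17, 14.20, 14.16, 13.98 and 14.12 in the ovaries, against 14.24, 14.30 and 14.49 (lowest, median, highest) in 10 adrenal arrays. Hsd3b1, which makes progesterone from pregnenolone, had 14.68, 14.81, 14.74, 14.75 and 14.55, against 14.55, 14.65 and 14.71. Star, given above for the ovaries, had 14.63, 14.76 and 14.85 in the adrenal. The ovary differed from the adrenal by -0.20 for Cyp11a1 (SE 0.49), 0.06 for Hsd3b1 (SE 0.54) and -0.07 for Star (SE 0.39). The limma adjusted p were 0.78, 0.94 and 0.90, from a spread shared by all groups rather than that of these 2 organs. For Cyp11a1 every ovary lay below every adrenal array. Values of this size lie close to the highest in the whole table, 15.8. Whether the signals were saturated was not tested. Scarb1, which takes up cholesterol from high-density lipoprotein, averaged 14.54 in the ovary and 14.23 in the adrenal. Fdx1, which passes electrons to CYP11A1, averaged 14.15 in the ovary and 14.61 in the adrenal. Nr5a1, the transcription factor named above, averaged 10.24 in the ovary and 10.84 in the adrenal. These 3 differences were below 2-fold.

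The branches after progesterone separated the organs. Cyp17a1, which makes androgen in theca cells, had 10.59, 9.96, 9.0, 5.95 and 11.10 in the ovaries, against 2.39 to 2.45 in the adrenal and 9.40 to 11.23 in the testes. It differed from the adrenal by 6.91 (limma adjusted p = 3.1e-48) and from the testes by -0.93 (limma adjusted p = 0.051). Its highest organ was the stomach, with a mean of 13.04. Cyp19a1, aromatase, had 5.78, 5.90, 6.0, 5.08 and 7.27 in the ovaries, against 10.22 in the stomach and means of 2.47 in the adrenal and 2.32 in the testes. Neither of the 2 enzymes was thus highest in the ovary, and both were lowest in ovary 4 and highest in ovary 5. Cyp21a1, which leads to adrenal corticoids, had 2.22, 2.21, 2.20, 2.87 and 5.72 in the ovaries, against 14.64 to 14.77 in the adrenal. Cyp11b1 had 2.28, 2.28, 2.32, 3.34 and 3.48 in the ovaries, against a mean of 13.69 in the adrenal. Both are defining genes of the adrenal cortex and were near the bottom of the scale in ovaries 1 to 3.

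**Figure D3:**
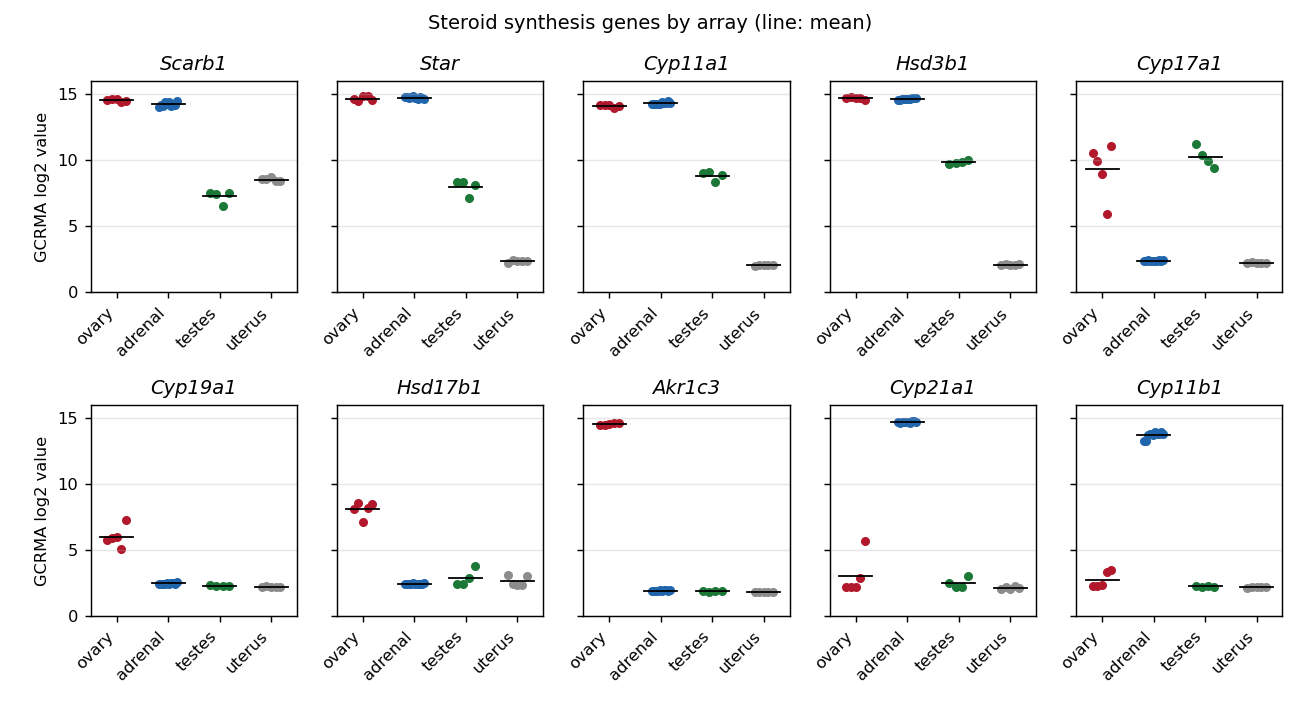
GCRMA log2 values (y axis) of 10 steroid synthesis genes by array in the ovary (5 arrays), adrenal (10), testes (4) and uterus (5), with a line at each mean. Star, Cyp11a1 and Hsd3b1 are level between ovary and adrenal, Hsd17b1 and Akr1c3 are high in the ovary, and Cyp21a1 and Cyp11b1 are high in the adrenal.

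Of 21 steroid synthesis genes on the array, 11 were higher in the ovary than the mean of the other organs. That was 52.4%, beside 6.86% of all probesets, and none was lower. The median difference was 1.25, beside -0.03 over all probesets. Against the adrenal, 5 were higher in the ovary and 5 lower, where 1756 of all probesets were higher (5.66%) and 1255 lower (4.04%). Those higher were Cyp17a1, Hsd17b1, Akr1c3, Hsd17b7 and Akr1c14. Hsd17b7, an enzyme of cholesterol and oestradiol synthesis, averaged 9.12 in the ovary and 7.09 in the adrenal, and Akr1c14, which reduces progesterone metabolites, averaged 10.58 and 3.85. Those lower were Cyp21a1, Cyp11b1, Cyp1b1, Por and Hsd11b2. Cyp1b1, which hydroxylates oestrogen, averaged 7.43 in the ovary and 14.14 in the adrenal. The median over 19 genes for the supply of cholesterol was 1.42. Of these, 11 were higher in the ovary than the mean of the other organs (57.9%, beside 6.86%) and none was lower. Besides Scarb1 they included Dhcr7, the enzyme of the last step of cholesterol synthesis, at 12.40 in the ovary and 12.57 in the adrenal, and Soat1, which stores cholesterol as ester, at 11.91 in the ovary and 12.98 in the adrenal. Soat1 was called lower than in the adrenal (difference -1.07, limma adjusted p = 0.00023).

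Akr1b7, an aldose reductase of the adrenal cortex, had 7.08, 8.30, 8.21, 8.82 and 10.71 in the ovaries, against 14.77 to 15.11 in the adrenal and a median of 2.42 over the other organ means. The 4 adrenal cortex genes on the list averaged 5.64 to 7.73 in the 5 ovaries and 13.8 in the adrenal. Mrap, a partner of the ACTH receptor, was the highest of the 4 in every ovary. It had 10.97, 11.04, 10.84, 11.13 and 11.02 in the ovaries, against 11.46 to 11.97 in the adrenal. Ovary 5, which had the highest Cyp21a1, also had the highest Akr1b7. The part of adrenal tissue in this was not tested.

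Among 20 receptors for gonadotrophins and other hormones, 7 were higher in the ovary than the mean of the other organs (35%, beside 6.86% of all probesets) and 1, Ghr, was lower (5%, beside 9.02%), with a median of 0.26. Prlr, the receptor of prolactin, which sustains the rat corpus luteum, had 12.57, 12.72, 12.46, 12.36 and 11.75 in the ovaries. It averaged 12.54 in the prostate and 11.84 in the adrenal, neither of which differed from the ovary by the 2-fold limit. Amhr2, the receptor of anti-Müllerian hormone, had 7.42, 7.52, 6.80, 6.93 and 7.07 in the ovaries, against 8.11 to 8.79 in the testes, with a difference of -1.27 (limma adjusted p = 1.9e-05). Igf1r, the receptor of insulin-like growth factor 1, averaged 9.64 in the ovary and 9.54 in the adrenal. The oestrogen receptors Esr1 and Esr2 and the progesterone receptor Pgr were near the bottom of the scale in all 5 ovaries, with means of 2.21, 2.41 and 2.41. Esr2 was at 4.44 in its highest organ, the prostate, whereas Pgr reached 10.67 in the uterus.

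Of 25 ovarian hormones and growth factors, 10 were higher than the mean of the other organs (40%, beside 6.86% of all probesets). Lower were 3 (12%, beside 9.02%), and the median was 1.57. Called above every other organ were 5 (20%, beside 0.403%), namely Inha, Inhba, Fst, Amh and Rln1. Inhbb, the beta B subunit of activin and inhibin, had 10.57, 10.49, 10.32, 10.65 and 11.22 in the ovaries, against 9.35 to 11.07 in the uterus, so the 2 groups overlapped. Ihh, a hedgehog ligand that granulosa cells send to theca cells, had 7.76, 7.83, 7.01, 6.87 and 7.03 in the ovaries and was highest in the caecum, at 9.86. The hedgehog targets Gli1 and Hhip averaged 2.85 and 2.15 in the ovary. Those lower than the mean of the other organs were Bmp4, Kitlg and Grem1. Insl3, a hormone of theca and Leydig cells, was at 1.46 to 1.57 in the ovaries, against a mean of 8.08 in the testes.

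Markers of the ovary's own cell types differed in how far they stood above the other organs. Of 19 granulosa cell genes, 15 were higher than the mean of the other organs (78.9%, beside 6.86% of all probesets). Another 2 were lower (10.5%, beside 9.02%), and the list median was 3.61. Foxl2, which maintains granulosa identity, had 9.69, 9.60, 9.48, 8.84 and 9.52 in the ovaries, against 8.29 to 9.63 in the uterus. Nr5a2, the receptor whose half-site is shown above, averaged 9.02 in the ovary and 9.28 in the colon. Gja1, the gap junction protein connexin 43, averaged 13.76 in the ovary and 13.59 in the heart. For each of these 3 genes another organ thus matched the ovary.

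Of 16 luteal cell genes, 13 were higher than the mean of the other organs (81.2%, beside 6.86% of all probesets) and none was lower. Their median of 5.59 was the largest of the 21 lists. Against the adrenal, 8 of the 16 were higher in the ovary (50%, beside 5.66%) and none was lower. Idh1, which supplies NADPH, had 13.66, 13.82, 13.76, 13.65 and 13.75 in the ovaries, against 12.57 to 12.99 in the liver. Of 13 theca and interstitial genes, 7 were higher than the mean of the other organs (53.8%) and 2 lower (15.4%), with a median of 1.96. Over all probesets these shares were 6.86% and 9.02%. The luteal and theca lists share members such as Star, Cyp11a1 and Lhcgr, and all lists were chosen with earlier results of these data known.

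Genes of the oocyte lay under the expression threshold in the ovary. Of 34 on the list, 13 were matched on the array, and none reached the threshold, beside 30.4% of all probesets. None could therefore be called higher than the mean of the other organs (0%, beside 6.86%), and the median was 0.15. Their list mean was 3.59 in the ovary, below only the testes at 3.79, against a median of 2.44 over the other organs. Zp3, a protein of the zona pellucida around the oocyte, had 5.75, 5.36, 5.41, 5.27 and 6.23 in the ovaries, against means of 2.18 to 2.48 in the other organs. Every ovary was above every other organ mean, by 3.13 between the ovary and pancreas means (SE 0.04, limma adjusted p = 4.46e-141). That SE comes from the spread shared by all groups and is smaller than the ovaries, at 5.27 to 6.23, show. Zp3 missed the call by its level alone. Ooep, a maternal-effect protein of the oocyte, had 5.43 to 6.10 in ovaries 1, 2, 3 and 5 and 5.12 in ovary 4, with 9.04 in the lung. Gdf9, a growth factor of the oocyte, averaged 4.82 in the ovary and 5.78 in the testes. Bmp15, Zp1, Mos and Sohlh1 averaged 2.25, 2.18, 2.19 and 2.09 in the ovary, near the bottom of the scale.

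Transcription factors of the gonad were higher than the mean of the other organs in 10 of 23 cases (43.5%, beside 6.86% of all probesets). Lower was 1, Runx1 (4.35%, beside 9.02%), and the median was 1.13. Gata4, which acts on steroid genes in the gonads, had 9.88, 9.76, 9.78, 10.21 and 9.62 in the ovaries, against a mean of 9.87 in the duodenum and 7.37 in the testes. Wt1, a factor of the early gonad, averaged 8.71 in the ovary, 9.01 in the uterus and 8.19 in the testes. Nr0b1, a repressor of steroid genes, was at 2.28 to 2.51 in 4 ovaries and 5.29 in ovary 2, against a mean of 7.50 in the testes. Of 20 genes that respond to the ovulatory surge of luteinising hormone, 4 were higher (Adamts1, Cebpb, Vcan and Timp1; 20%, beside 6.86% of all probesets) and 4 lower (Ptgs2, Areg, Runx1 and Cd44; 20%, beside 9.02%), with a median of -0.15. Ptgs2, Areg and Tnfaip6, which mark follicles shortly before ovulation, averaged 3.63, 2.45 and 2.77, under the expression threshold.

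**Figure D4:**
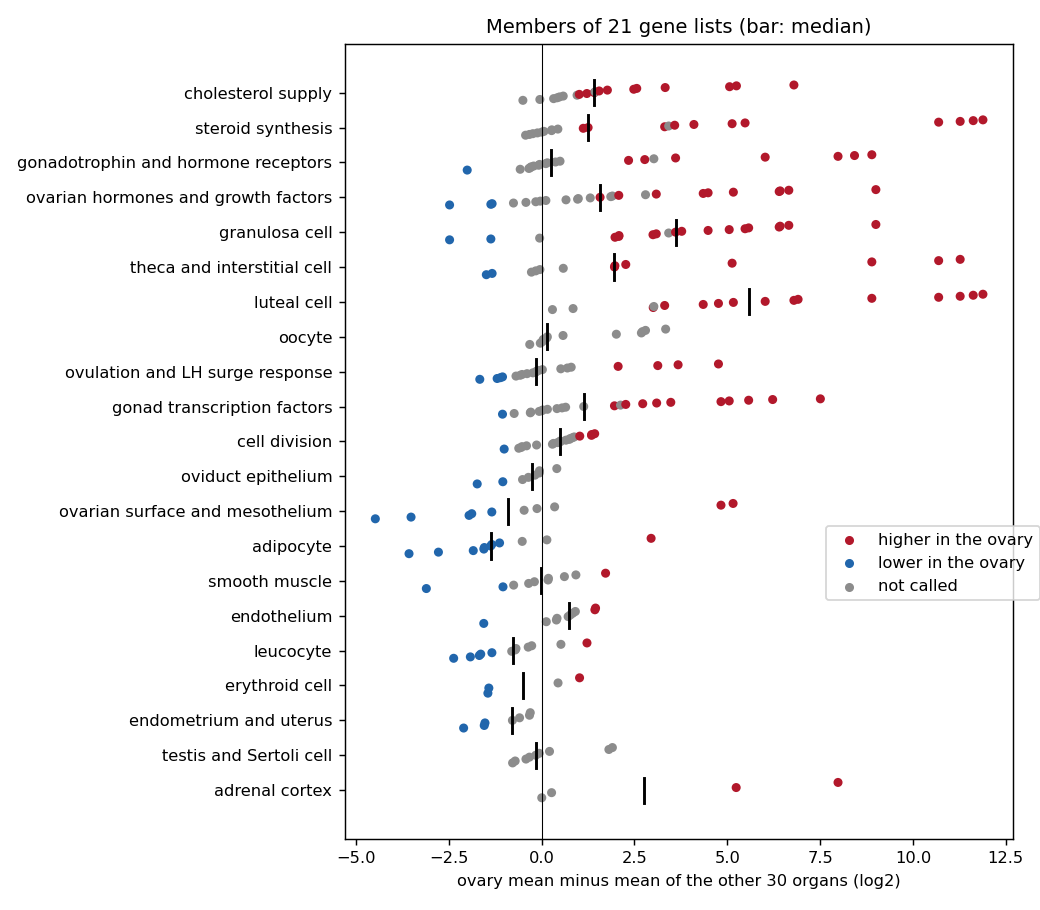
Ovary mean minus mean of the other 30 organs (x axis, log2) for the members of 21 gene lists, 1 list per row, with a bar at the median. Red points were called higher in the ovary, blue points lower and grey points neither, and the luteal and granulosa rows lie furthest to the right at medians of 5.59 and 3.61.

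Against the testes, 4901 probesets were higher in the ovary (15.8%) and 3837 lower (12.4%), more than against the adrenal or the uterus. Of the steroid synthesis genes, 10 of 21 were higher in the ovary and 2 lower. The ovary exceeded the testes by 6.66 for Star (limma adjusted p = 4.7e-30), by 5.28 for Cyp11a1 and by 4.85 for Hsd3b1, whose 4 testes arrays lay at 7.12 to 8.40, 8.35 to 9.08 and 9.74 to 10.03. Of 20 dividing cell genes, 15 were lower in the ovary than in the testes and 2 were higher, with a median of -2.86. Of the same list, 10 were higher in the ovary than in the adrenal (50%, beside 5.66% of all probesets) and none was lower (median 2.23). Against the mean of the other organs, 4 were higher (20%, beside 6.86%) and 1 was lower (5%, beside 9.02%), with a median of 0.50. The sperm genes Tnp1 and Prm1, which pack DNA in the sperm head, averaged 2.59 and 3.52 in the ovary and 15.05 and 15.31 in the testes.

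Against the uterus, 1773 probesets were higher in the ovary (5.71%) and 2671 lower (8.6%). All 10 smooth muscle genes were lower in the ovary, with a median difference of -3.57 beside 0.09 over all probesets. Myh11, smooth muscle myosin, had 10.17, 9.64, 9.92, 9.60 and 9.80 in the ovaries, against a mean of 13.87 in the uterus. Relative to the mean of all other organs, 1 of the 10 (Acta2, at 10.98) was higher (10%, beside 6.86% of all probesets) and 2 were lower (20%, beside 9.02%). Hoxa10 and Hoxa11, which pattern the uterus, averaged 2.94 and 2.37 in the ovary and 10.12 and 8.91 in the uterus. Of the 20 dividing cell genes, 6 were lower in the ovary than in the uterus and none was higher.

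Markers of neighbouring tissues and of other cell types were read beside the shares over all probesets, 6.86% higher than the mean of the other organs and 9.02% lower. Of 8 oviduct genes none reached the expression threshold in the ovary, beside 30.4% of all probesets, and 2 were lower than the mean of the other organs (25%). Their list mean was 3.07 to 3.65 in the ovaries, against a median of 3.48 over the other organs. Of 10 genes of the ovarian surface and mesothelium, 2 were higher than the mean of the other organs (20%, Lrrn4 and Wt1) and 5 lower (50%). The epithelial genes Cdh1, Krt18 and Krt8 among them were lower than the mean of the other organs, at 3.70, 4.46 and 6.07. Of 11 adipocyte genes, 8 were lower in the ovary (72.7%) and 1 higher (9.09%). Adipoq, adiponectin, had 4.15, 3.46, 5.59, 2.74 and 5.92 in the ovaries, against 13.23 in adipose, and the list mean ranged between 4.71 and 5.78 over the ovaries with 12.8 in adipose. The exception was Pparg, a nuclear receptor also known from granulosa cells, at 8.79, 8.63, 8.67, 8.47 and 8.72. Of 12 leucocyte genes 5 were lower (41.7%) and 1 higher (8.33%, Cd68 of macrophages), and the B cell gene Ms4a1 was at 1.98 to 2.00. Of 7 uterine genes and 9 testis and Sertoli cell genes none was higher, while 3 of the 7 uterine genes were lower (42.9%). Of 4 red blood cell genes 1 was higher (25%) and 2 lower (50%). Of 10 endothelial genes 2 were higher (20%, Tie1 and Emcn) and 1 lower (10%, Vwf), with a median of 0.74.

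The 5 ovaries differed among themselves in particular genes. Over the 9439 expressed probesets the median SD was 0.25, against 0.16 to 0.36 in the 35 groups of 5 arrays of the series, and 86 probesets (0.911%) had an SD over 1. Among the 8 genes with the largest SD were 3 described above (Cyp17a1, Bpifb6 and, by another probeset, Dag1). The most variable was RT1-CE16, a class I histocompatibility gene, at 5.83, 6.25, 10.30, 5.54 and 10.95. Ovaries 3 and 5 were high. The adrenal arrays of females 1 to 5 had 7.00, 6.51, 11.37, 8.25 and 11.48, with the same pair of numbers high. The study's supplement numbers the animals of the ovaries apart from those of the other organs, so whether a shared number is a shared animal is not settled. In the organs other than ovary, adrenal and pituitary the median was highest at number 2, at 9.69.

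Prl, prolactin, had 11.32, 6.96, 9.45, 6.79 and 10.44 in the ovaries, and Gh1, growth hormone, had 6.87, 2.46, 5.23, 2.15 and 6.70. Both are hormones of the pituitary, where they averaged 15.38 and 15.14. Ovaries 1, 3 and 5 were high for both. Over the 241 arrays of the remaining organs the median was 2.35 for Prl and 2.07 for Gh1, with 1 array above the expression threshold for each. The other pituitary genes examined did not share this level. Pomc, Fshb and Tshb were at 2.20 to 2.23, 2.61 to 2.67 and 2.44 to 2.78 in the ovaries, Cga, the common subunit of the glycoprotein hormones, was at 1.83 to 2.08 against 14.44 in the pituitary, and Lhb was at 3.16 to 3.18 in 4 ovaries and 4.69 in ovary 5. These genes other than Prl were chosen after its values were seen.

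Egfr, the receptor of epidermal growth factor, had 5.48, 8.58, 5.37, 8.78 and 5.17, so that ovaries 2 and 4 were high. Efnb1, an ephrin ligand, had 7.38, 7.83, 8.52, 9.01 and 3.81, with ovary 5 low, and Prss35, a serine protease of the follicle, had 9.73 in ovary 1 and 5.80 to 6.34 in the other 4. The genes thus did not share a single ordering of the ovaries. Of the cholesterol supply genes, 14 of 19 were lowest in ovary 4 and 11 were highest in ovary 5, where 36% and 37.4% of all expressed probesets were lowest and highest. Sqle, an early enzyme of sterol synthesis, had 9.40 in ovary 4 and 10.84 in ovary 5 with a median of 10.09, and Hsd17b7 had 8.86, 9.25, 9.20, 7.74 and 10.57. Of the 20 dividing cell genes, 16 were highest in ovary 5, as was Mki67, with 7.69, 7.70, 6.74, 7.11 and 8.46. As the cycle stage of the animals is not in the labels, it cannot be set against these values.

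**Figure D5:**
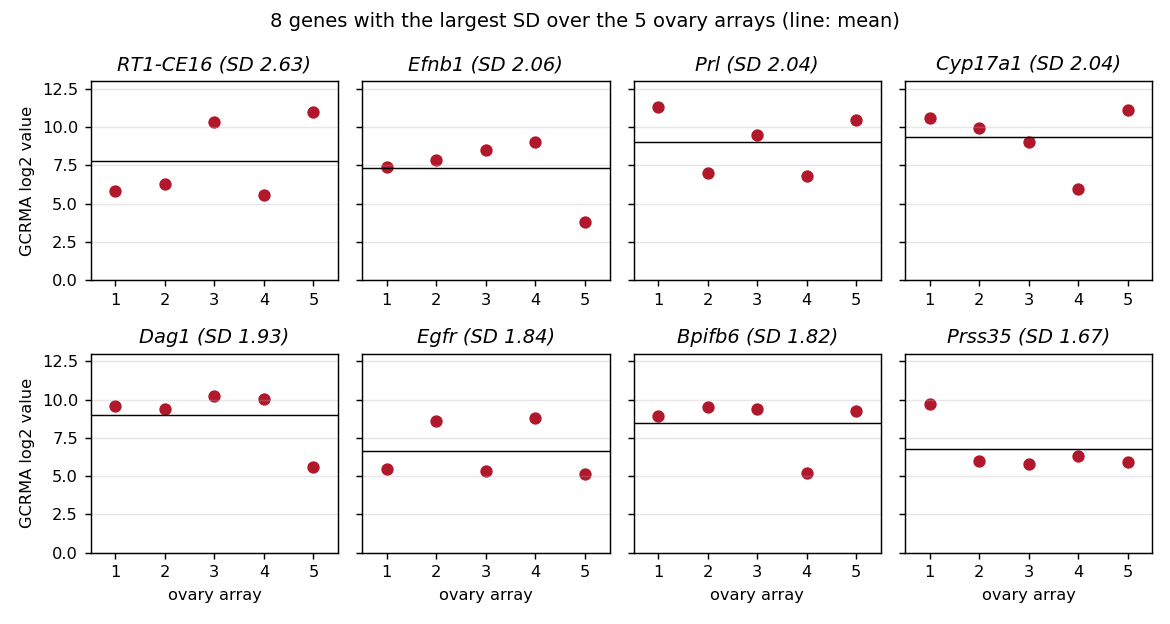
GCRMA log2 values (y axis) of the 8 genes with the largest SD over ovaries 1 to 5 (x axis), 1 panel per gene, with a line at the mean. RT1-CE16 is high in ovaries 3 and 5, Prl in ovaries 1, 3 and 5, and Egfr in ovaries 2 and 4, while Bpifb6 and Cyp17a1 are lowest in ovary 4.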

How the data were processed

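RNA of 256 rat organ samples had been hybridised to Affymetrix RAE230_2 arrays. The authors deposited log2 values after GCRMA (background correction from probe sequence, normalisation and summary of each probeset). The GCRMA version is not given in the sources used. Symbols came from GEO's platform annotation, updated by gene number through RefSeq, with 20826 probesets carrying 1 symbol, 436 several and 9780 none, and 20758 found in RefSeq.

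The values were used as deposited. A limma fit (version 3.58.1, R 4.3.3) held 57 means of organ by sex, and organ means weighted arrays equally. The ovary was set against the mean of the 30 other organ means, against the adrenal, testes and uterus, and against every other organ (the largest of 30 one-sided p-values). P-values were adjusted by Benjamini-Hochberg over 31042 probesets. Calls needed an adjusted p under 0.05, a difference over 1 and the higher mean above the expression threshold of the study's methods (for calls against the mean, that of the ovary or of the highest other organ). As all groups share 1 estimate of the spread, a gene variable elsewhere has a larger SE than its ovaries show, and a gene near background in most organs a smaller one (Amh, SE 0.11 for a gap with an SD of 0.75 over the ovaries; Lhcgr, SE 0.15 with an SD of 0.94). In data simulated for the comparison with every other organ (31042 probesets), 97 of 100 differences of 1.5 and 100 of 100 differences of 2.5 were called, with 1 false call. The simulation gave each probeset the same spread in all organs. It therefore cannot show how the calls fare where the spread differs between organs.

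Named genes were the 20 with the largest gap to the next organ, the 8 expressed ones with the largest SD over the ovaries, Star, Inha, and the members of 21 gene lists (243 entries matched). The 20 are given by the probeset with the largest gap, and list members by the probeset with the highest mean over organs. A rule for the 6 genes furthest below every other organ gave none. The members and lists were chosen with earlier results of these data known. The number of arrays limits the precision.

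Replicate numbers were checked as pairs. Same-numbered ovary and adrenal arrays deviated together (correlations 0.11 to 0.33, and 5 of 5 ovaries closest to their own number), which met the condition set for pairing. The study's supplement numbers the ovary animals apart from those of other organs, so whether a number marks 1 animal is not settled. None of the 26 other organs with female arrays met the condition of all pairs over 0.1. Alternatives covered the spread model, t-tests, females only, quantile normalisation, thresholds and leaving out arrays.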

Additional observations from a re-analysis of the deposited data

Results flagged for a closer look

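Over 49 genes examined, 5 had an ovary set apart from the other 4 (a gap over 0.71 of the whole range, which chance gives in about 1 of 20 groups). Of these, 3 were low in ovary 4. Amh had 7.62 there and 8.97 to 9.47 in the other 4 ovaries. Bpifb6 had 5.21 there and 8.92 to 9.49 in the others. Aldh3b1 had 9.07 there and 10.46 to 10.58 in the others. In ovary 5, the probeset of Dag1 with the largest SD had 5.58, against 9.39 to 10.26 in the other 4. In ovary 1, Prss35 had 9.73, against 5.80 to 6.34 in the other 4. The 49 genes include the 8 chosen for the largest SD over the ovaries, among them Bpifb6, Prss35 and this probeset of Dag1, to which the chance rate does not apply. Over the 9439 expressed probesets, 156 stood apart low in ovary 4, 177 low in ovary 5 and 19 high in ovary 1. Of those with a range over 2 across the ovaries, 3 stood apart low in ovary 4, 34 low in ovary 5 and 1 high in ovary 1. The rule alone thus picked out many probesets besides the genes named here, but few of this range in ovaries 1 and 4.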

How the results depend on the processing

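The counts of calls were recomputed under other settings, and 218 of 236 stayed within 1.5 times of the count reported, with no reversal. Against the mean of the other organs, the counts were 3333 higher and 5118 lower at 1.5-fold, and 860 and 659 at 4-fold. Above every other organ, 82 probesets were called in fits of the ovary with 1 organ at a time (81 of them among the 125), 66 by the methods' t-test (66 among the 125) and 49 at 4-fold. Below every other organ, 1 was called with no expression threshold. Against the adrenal, 2874 were higher and 1920 lower with no threshold, 2092 lower at 1.5-fold, and 872 higher and 515 lower at 4-fold. Against the testes, 3137 were higher at 4-fold. Against the uterus, 2760 were higher and 4380 lower with no threshold, and 757 and 1127 at 4-fold. Looser or stricter limits give more or fewer calls by construction, and the cause of the lower counts with a separate spread per organ was not tested. Leaving out 1 replicate gave 114 to 125 probesets above every other organ, 2104 to 2171 above the mean and 2716 to 2939 below it. Other choices of arrays gave 133 with female arrays, 127 after quantile normalisation, 101 against each organ and sex, and 179 without testes and adrenal. With the replicate number as a block 125 were called above every other organ and 2131 above the mean, and no call count moved past 1.5 times. In a fit of ovary and adrenal females alone, chosen after seeing the data, the pairing gave 1811 higher and 1229 lower, against 1822 and 1237 unpaired. Of 400 refits of the 20 named genes, 385 kept the call, and 13 genes kept it in every refit. Bpifb6, Rln1 and Testin also lost it in the fits of 1 organ at a time (limma adjusted p = 0.0606, 0.0741 and 0.0557). The oocyte genes lie at levels where background correction limits what can be read.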

Other observations

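Some of the 75 genes called above every other organ lay next to each other in the order of protein-coding genes. C8h15orf39 and Ppcdc were neighbours on chromosome 8, and Rpp25 followed Ppcdc with Scamp5 between them. C8h15orf39 had 11.49, 11.57, 11.52, 10.91 and 11.16 in the ovaries, against 8.60 to 9.67 in 10 adrenal arrays, whereas Scamp5, a secretory carrier membrane protein, had 3.87 to 4.01 in the ovaries and 6.03 in the caecum. Gnrhr and Uba6, a ubiquitin-activating enzyme, were neighbours on chromosome 14. Uba6 had 9.30, 9.39, 9.67, 9.27 and 9.79 in the ovaries, against 7.08 to 7.65 in 10 brain arrays. Ano1, a chloride channel, and Ppfia1 lay on chromosome 1 with Fadd between them. Ano1 averaged 10.16 in the ovary and 8.51 in the thyroid, Ppfia1 averaged 8.15 in the ovary and 6.62 in the thymus, and Fadd averaged 5.60 in the ovary and 7.75 in the ileum. Spin2a and Spin2b, neighbours on the X chromosome, are paralogs whose probes may not separate them. These pairs were noticed after the values were seen and carry no test.

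RT1-CE16 was not high at the same replicate numbers in every organ. In the pituitaries of females 1 to 5 it had 6.45, 6.4, 11.19, 7.69 and 11.01, high at the same numbers as in the ovary and adrenal arrays. In the organs other than these 3, the medians for females 1 to 5 were 6.59, 9.69, 8.06, 8.78 and 7.07, highest at number 2. Over all probesets the pituitary did not meet the condition for pairing with the ovary (0 of 5 pairs over 0.1).

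Among probesets with no gene symbol, the one with the largest gap had 12.52, 12.45, 12.67, 12.83 and 12.83 in the ovaries and a mean of 8.01 in the epididymis, the next organ.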
